A study of Arabidopsis thaliana with 10 samples.

Results

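The chloroplast genome of Arabidopsis thaliana carries genes for part of the photosynthetic machinery, and their transcripts were followed here in whole young seedlings on Affymetrix ATH1 arrays. Members were the probe sets annotated to 1 gene of the chloroplast genome with a symbol beginning psa, psb, pet, atp, ndh or rbcL. There were 43 of them among the 22810 probe sets of the array. They comprised 5 genes of photosystem I, 15 of photosystem II, 6 of the cytochrome b6f complex, 6 of the ATP synthase, 10 of the NDH complex and 1 of Rubisco. Each stands for a different gene, out of 44 symbols of these families in RefSeq's plastid annotation. A further probe set listed both copies of 1 ndh gene and was kept apart, with intensities between 53.1 and 113.6 over the arrays.

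The question of the series is what a far-red light pretreatment that blocks chloroplast development does to seedling transcripts. FR seedlings had far-red light before white light and D seedlings went to white light without it; the labels do not explain the letter D. The groups were phyA_FR and phyA_D (a phyA-null mutant lacking the far-red photoreceptor phytochrome A, 1 array each), gun1gun5_FR and gun1gun5_D (a double mutant in 2 genes of chloroplast-to-nucleus signalling, 2 arrays each), and WT_FR and WT_D (wild type Col-0, 2 arrays each). Each array came from a pool of 300 seedlings with cotyledons, hypocotyl and primary root, kept at 22 °C in continuous light. The labels list no sucrose for WT_FR, gun1gun5 and phyA, but 1.5% sucrose for both WT_D arrays. For WT_D replicate 2 they also list 5 µM norflurazon, which blocks carotenoid synthesis. In wild type the pretreatment and the medium therefore cannot be told apart.

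Photosystem II splits water and passes electrons through cytochrome b6f to photosystem I, and the ATP synthase uses the proton gradient that this builds. The NDH complex returns electrons from photosystem I to the chain, and Rubisco fixes carbon dioxide. All of these complexes also need proteins made from nuclear genes. Plastid genes are transcribed by a plastid-encoded polymerase, whose core subunits come from the rpo genes, and by polymerases of nuclear origin. Many lie in shared transcription units whose long transcripts are cut into smaller ones, so probe sets of 1 unit are not independent. Plastid transcripts mostly lack stable poly(A) tails, whereas the label was primed with oligo-dT, so these signals do not measure plastid RNA as evenly as they do nuclear mRNA.

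Over the 10 arrays the values were linear intensities that the authors had scaled to a trimmed mean of about 100. All 43 members were above 16 on every array, and their values ran between 19.6 for ndhF and 3900.8 for atpB. Of the members, 25 had a mean above 1000, as had 566 probe sets of the whole array. All 43 passed the filter on low values that left 13647 probe sets for testing. Of 9 green-tissue markers, 5 had a named probe set and all 5 were above 16 on every array. All 5 had both FR arrays below both D arrays in gun1gun5 and in wild type, as had 17.5% of all tested probe sets. RCA, the activase of Rubisco, had 2910.6 and 2814.4 in gun1gun5_FR against 3492.0 and 3677.3 in gun1gun5_D. In wild type it had 2640.3 and 2603.2 in WT_FR against 2721.1 and 2875.1 in WT_D. The phyA arrays gave 3420.9 for FR and 3391.4 for D. Of 8 root markers 2 were named, and none of 6 seed reserve markers was. EXPA7, of root hairs, lay between 28.0 and 49.2. PYK10, a root beta-glucosidase, had 2331.8 and 2150.1 in gun1gun5_FR against 2788.8 and 3135.4 in gun1gun5_D, 2522.7 and 2660.2 in WT_FR against 2587.3 and 2812.9 in WT_D, and 3127.7 in phyA_FR against 3268.7 in phyA_D. Its FR and D arrays were apart in gun1gun5 and overlapped in wild type. AUR1, a kinase of dividing cells and the 1 named of 4 such markers, had 49.0 and 50.3 in gun1gun5_FR against 93.9 and 74.3 in gun1gun5_D, and 51.9 and 47.7 in WT_FR against 100.8 and 88.9 in WT_D. The ratio of 3' to 5' signal for GAPDH, a sign of RNA quality, was 1.11 and 1.13 in gun1gun5_FR against 1.27 and 1.25 in gun1gun5_D, and 0.925 and 0.943 in WT_FR against 1.08 and 1.05 in WT_D. The GAPDH ratio was thus lower with far-red and higher in gun1gun5, with no overlap, in the same arrays that are compared here. The same ratio for actin did not follow this pattern. It was 1.58 and 2.17 in gun1gun5_FR against 1.91 and 2.16 in gun1gun5_D, so these groups overlapped. In wild type it was higher with far-red, at 2.41 and 3.59 in WT_FR against 1.94 and 2.13 in WT_D, and it was not higher in gun1gun5. The part of green cells, PYK10-expressing cells, dividing cells and RNA quality in the results below was not tested. In whole seedlings, fewer cells with chloroplasts and less plastid RNA per cell cannot be told apart.

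Differences are given on the scale of log2(intensity + 16) with their standard errors (SE), and a member was called at an adjusted p under 0.05 in limma's two-sided test over all tested probe sets. With far-red, few plastid photosynthesis genes passed the test, and those that did were lower. On this scale none changed by as much as 2-fold in either genotype, but the added 16 shrinks differences between low intensities. With 1 added in place of 16, the wild-type difference of atpI was -1.03. In gun1gun5, 8 of the 43 (18.6%) were called lower and 0 higher, against 8.06% lower and 6.38% higher among all tested probe sets. The 8 were atpI, ndhE, atpE, atpA, psbK, psaB, ndhI and atpB. In wild type, 4 of 43 (9.30%) were called lower and 0 higher, against 12.6% lower and 9.72% higher among all tested probe sets, so the wild-type share was below the background. Those 4 were atpI, psaC, psbB and psbD. At an unadjusted p under 0.05, 21 members were lower and 0 higher in gun1gun5, against 15.7% lower and 14.4% higher among all tested probe sets. In wild type 11 were lower and 2 higher, against 18.7% lower and 16.2% higher.

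The median member difference was -0.26 in gun1gun5 and -0.12 in wild type, where the medians over all tested probe sets were -0.0047 in gun1gun5 and -0.0068 in wild type. Below 0 were 38 members in gun1gun5 and 37 in wild type, 34 of them in both. After quantile normalization the medians were -0.14 in gun1gun5 and -0.10 in wild type, and without WT_D replicate 1 the wild-type median was -0.24. The 99th percentile of all values, which this normalization sets equal, was 1703 and 1684 in gun1gun5_FR against 1794 and 1847 in gun1gun5_D. In wild type these percentiles overlapped, at 1592 and 1561 in WT_FR against 1570 and 1647 in WT_D. The part of the brightest values in the gun1gun5 decreases was not tested. Quantile normalization between arrays left 1 lower call in gun1gun5, atpI, against 947 lower of all 13647 tested probe sets. In wild type it gave 6 lower and 2 higher calls, the higher ones being psbA and rbcL, against 1683 lower and 1447 higher. The calls in both genotypes also depended on single arrays. With 1 array left out, the median member difference lay between -0.34 and -0.21 in gun1gun5. In wild type it lay between -0.24 and -0.095, the latter without WT_D replicate 2, the norflurazon array. Such fits leave 1 array in a group and called fewer of all tested probe sets. Whether the calls lost there were particular to the members was not tested.

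**Figure D1:**
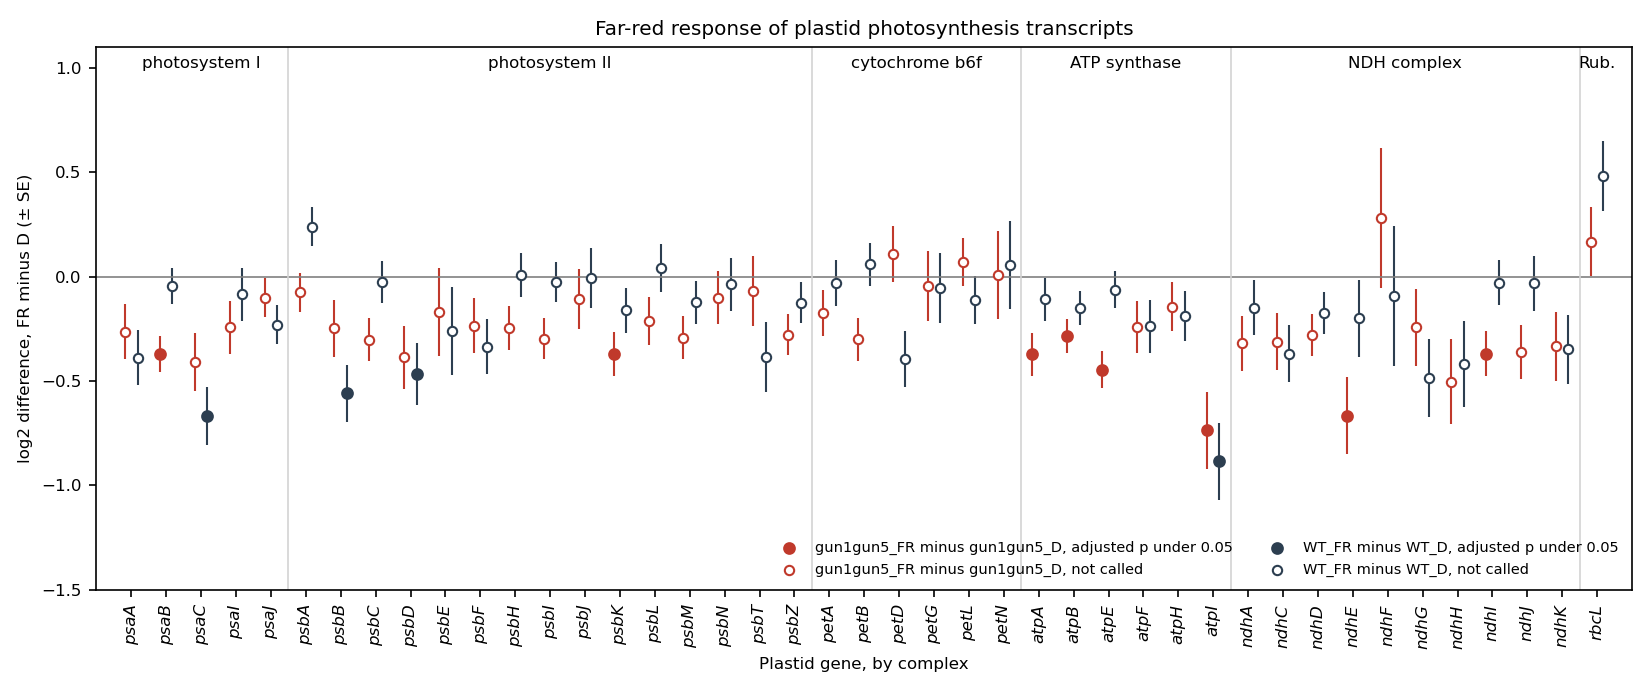
Log2 difference of FR minus D (vertical axis, with SE bars) for each of the 43 plastid genes, grouped by complex, in gun1gun5 (red) and wild type (dark); filled points were called at an adjusted p under 0.05. Most points lie a little below 0 in both genotypes, atpI is the lowest in each at -0.74 and -0.89, and rbcL stands above 0 in both.

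The ATP synthase held the largest decrease and the one call that both genotypes shared. atpI encodes subunit a of the membrane part, which forms part of the proton path. It had 88.3 and 90.5 in gun1gun5_FR against 129.6 and 195.6 in gun1gun5_D. In wild type it had 64.2 and 66.2 in WT_FR against 115.0 and 155.7 in WT_D. The phyA arrays, at 154.5 for FR and 161.0 for D, lay within the range of the D arrays of the other genotypes. The atpI difference was -0.74 ± 0.19 in gun1gun5 (adjusted p = 0.0254) and -0.89 ± 0.19 in wild type (adjusted p = 0.00708), a 1.67-fold and a 1.85-fold decrease. FR and D arrays did not overlap in either genotype. The wild-type call held in 12 of 13 alternative settings, and without WT_D replicate 2 the adjusted p was 0.0616. The gun1gun5 call held in 9 of 13, and without gun1gun5_D replicate 2 the difference was -0.47 (adjusted p = 0.181).

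atpE and atpB encode the epsilon and beta subunits of the catalytic head and share a transcription unit. For atpE, gun1gun5_FR gave 2567.4 and 2463.9 against 3263.2 and 3615.4 in gun1gun5_D, while WT_FR gave 2476.6 and 2548.7 against 2530.1 and 2722.7 in WT_D. Only the gun1gun5_D arrays stood clearly higher, and the phyA arrays lay between at 3020.9 for FR and 3126.1 for D. The atpE difference was -0.45 ± 0.09 in gun1gun5 (adjusted p = 0.00925) and -0.06 ± 0.09 in wild type. For atpB the values were 3112.5 and 2999.2 in gun1gun5_FR against 3563.9 and 3900.8 in gun1gun5_D, and 2876.0 and 2802.3 in WT_FR against 3124.2 and 3178.8 in WT_D, with phyA at 3416.0 for FR and 3609.9 for D. Its difference of -0.29 ± 0.08 in gun1gun5 (adjusted p = 0.0419) was 0.032 after quantile normalization.

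The catalytic head's alpha subunit is encoded by atpA, at the other end of the transcription unit that holds atpI. It had 2359.3 and 2497.7 in gun1gun5_FR against 2887.7 and 3428.9 in gun1gun5_D, 2359.9 and 2177.5 in WT_FR against 2368.4 and 2522.5 in WT_D, and 2999.2 in phyA_FR against 2472.7 in phyA_D. The gun1gun5 difference was -0.37 ± 0.10 (adjusted p = 0.0369). All 6 ATP synthase genes were below 0 in both genotypes, 4 of them called lower in gun1gun5 and 1 in wild type, with medians of -0.33 in gun1gun5 and -0.17 in wild type.

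In photosystem I, psaC showed the wild-type decrease that depended least on the processing. The gene encodes the protein that carries the terminal iron-sulfur clusters, from which electrons pass to ferredoxin. It had 833.6 and 1024.7 in gun1gun5_FR against 1094.7 and 1385.8 in gun1gun5_D, and 661.4 and 669.1 in WT_FR against 1049.5 and 1084.6 in WT_D. The phyA arrays gave 1026.8 for FR and 901.2 for D, so both WT_FR arrays were the lowest of the 10. The psaC difference was -0.67 ± 0.14 in wild type (adjusted p = 0.00675), a 1.59-fold decrease called in all 13 alternative settings, and -0.41 ± 0.14 in gun1gun5 (adjusted p = 0.0758).

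psaB encodes one of the pair of reaction-centre proteins. Its values were 2693.0 and 2681.7 in gun1gun5_FR against 3314.6 and 3646.2 in gun1gun5_D, 2473.6 and 2627.7 in WT_FR against 2550.7 and 2717.1 in WT_D, and 3593.4 in phyA_FR against 3229.4 in phyA_D. FR and D arrays were apart in gun1gun5 and overlapped in wild type. The difference was -0.37 ± 0.09 in gun1gun5 (adjusted p = 0.0194) and -0.05 ± 0.09 in wild type. All 5 photosystem I genes were below 0 in both genotypes, with medians of -0.26 in gun1gun5 and -0.23 in wild type and 1 call in each.

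Photosystem II gave 1 call of 15 in gun1gun5, psbK, and 2 of 15 in wild type, psbB and psbD. psbB encodes the core antenna protein CP47. It had 734.8 and 815.6 in gun1gun5_FR against 801.4 and 1061.9 in gun1gun5_D, and 551.4 and 540.5 in WT_FR against 826.3 and 798.4 in WT_D, with phyA at 1004.4 for FR and 977.5 for D. The psbB difference was -0.56 ± 0.14 in wild type (adjusted p = 0.0160) and -0.25 ± 0.14 in gun1gun5. The reaction-centre protein D2 is the product of psbD, which had 1177.2 and 956.1 in gun1gun5_FR against 1241.4 and 1561.2 in gun1gun5_D, and 1027.7 and 828.0 in WT_FR against 1292.8 and 1270.2 in WT_D. Both phyA arrays were above these, at 1681.4 for FR and 1575.8 for D. Its wild-type difference was -0.47 ± 0.15 (adjusted p = 0.0485), a call lost in 8 of 13 alternative settings. The psbB and psbD calls were both lost without WT_FR replicate 2 and without either WT_D array.

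psbK, for a small subunit of the photosystem II core, had 1756.0 and 1705.3 in gun1gun5_FR against 2096.1 and 2399.0 in gun1gun5_D. Its wild-type values were 1586.3 and 1586.1 in WT_FR against 1647.0 and 1917.1 in WT_D, and phyA gave 1703.9 for FR and 1750.0 for D. The psbK difference in gun1gun5 was -0.37 ± 0.11 (adjusted p = 0.0443). psbA, which encodes the rapidly replaced reaction-centre protein D1, ran the other way in wild type. It had 2527.6 and 2522.2 in gun1gun5_FR against 2483.6 and 2853.2 in gun1gun5_D, and 2186.4 and 2153.1 in WT_FR against 1852.4 and 1819.3 in WT_D. The phyA_FR array, at 3067.3, was above the 8 gun1gun5 and wild-type arrays, and phyA_D, at 2774.6, was above all but 1 of them. The WT_FR arrays lay above the WT_D arrays, while the gun1gun5 groups overlapped. The wild-type difference of 0.24 ± 0.09 did not pass (adjusted p = 0.0898). All 15 photosystem II genes were below 0 in gun1gun5 and 12 in wild type, with medians of -0.25 in gun1gun5 and -0.12 in wild type.

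**Figure D2:**
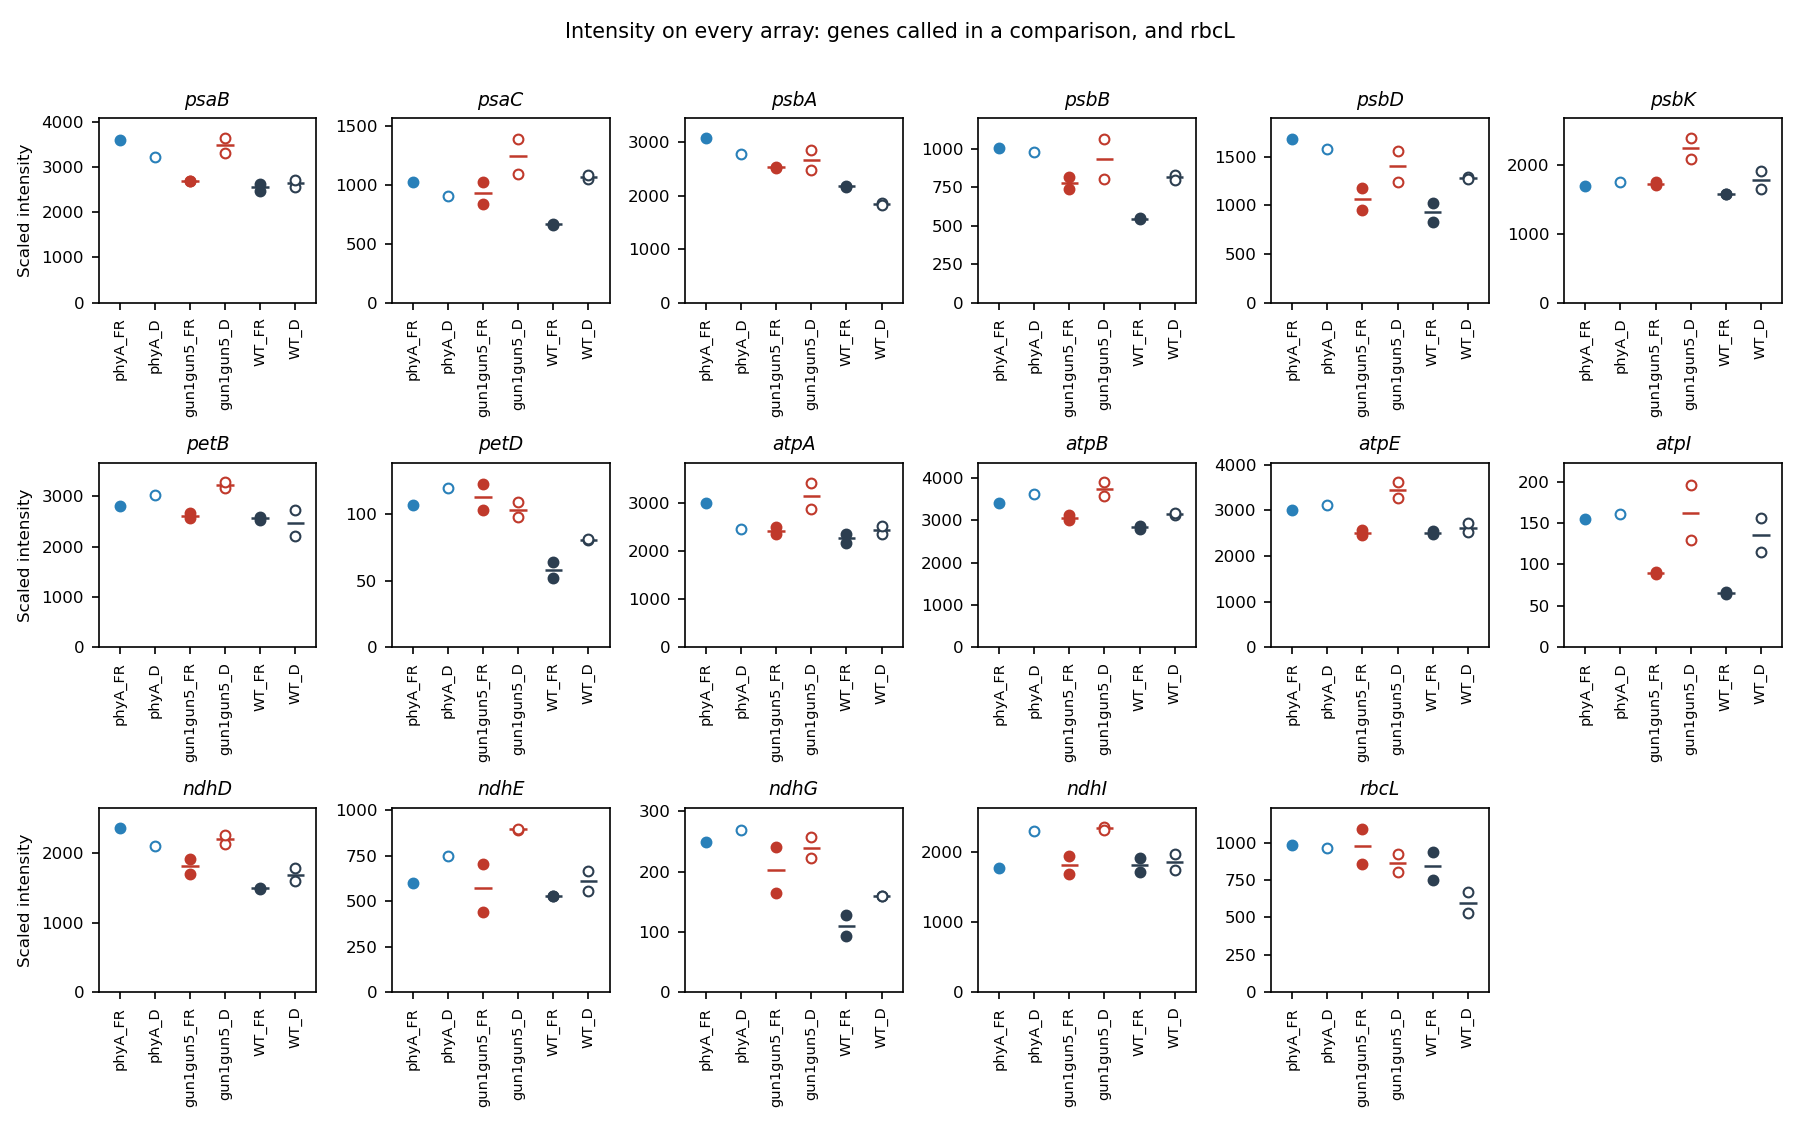
Scaled intensity (vertical axis, from 0) on every array for the 16 genes called in any of the 5 comparisons and for rbcL; filled points are FR, open points D, and bars are means of 2 arrays. The FR points of atpI lie below the D points in gun1gun5 (88.3 and 90.5 against 129.6 and 195.6) and in wild type, while petD separates wild type, at 51.7 to 81.2, from the other genotypes.

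The NDH complex had 2 members called lower of 10 in gun1gun5 and 0 in wild type, where 2 had an unadjusted p under 0.05. ndhE and ndhI encode a membrane subunit and an iron-sulfur subunit of the arm that accepts electrons. ndhE had 443.4 and 703.3 in gun1gun5_FR against 892.1 and 899.8 in gun1gun5_D, 528.5 and 528.8 in WT_FR against 555.6 and 669.1 in WT_D, and 600.9 in phyA_FR against 746.9 in phyA_D. The FR arrays of gun1gun5 were apart from its D arrays but differed among themselves by more than any other group's. The ndhE difference was -0.67 ± 0.19 in gun1gun5 (adjusted p = 0.0381) and -0.20 ± 0.19 in wild type. The gun1gun5 value was -0.34 without gun1gun5_FR replicate 1 and -0.99 without gun1gun5_FR replicate 2.

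For ndhI the values were 1942.7 and 1689.6 in gun1gun5_FR against 2366.3 and 2322.5 in gun1gun5_D, 1927.1 and 1721.2 in WT_FR against 1752.1 and 1970.8 in WT_D, and 1771.0 in phyA_FR against 2302.2 in phyA_D. The gun1gun5 difference was -0.37 ± 0.11 (adjusted p = 0.0463) and the wild-type one -0.03 ± 0.11. Below 0 were 9 of the 10 ndh genes in gun1gun5 and all 10 in wild type, with medians of -0.33 in gun1gun5 and -0.19 in wild type. The exception, ndhF, had the largest positive gun1gun5 difference of all members, 0.28 ± 0.34, and the widest SE.

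Cytochrome b6f had 0 called of 6 in either far-red comparison, and 1 gene in each had an unadjusted p under 0.05 (petB lower in gun1gun5, petD lower in wild type). Its medians, -0.02 in gun1gun5 and -0.04 in wild type, were nearest to 0 among the complexes. rbcL, for the large subunit of Rubisco, was the member with the largest positive difference in wild type. It had 1092.4 and 855.4 in gun1gun5_FR against 801.6 and 921.2 in gun1gun5_D, 934.7 and 748.2 in WT_FR against 529.9 and 666.2 in WT_D, and 982.5 in phyA_FR against 962.3 in phyA_D. WT_D held the 2 lowest values of the 10. The rbcL difference was 0.48 ± 0.17 in wild type (adjusted p = 0.0619) and 0.17 ± 0.17 in gun1gun5 (adjusted p = 0.545), so neither was called. petN and rbcL were the 2 members above 0 in both genotypes.

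By ranks alone, both FR arrays lay below both D arrays in gun1gun5 and in wild type for 15 of 43 members (34.9%), and for 17.5% of all tested probe sets. These 15 included 5 of the 6 ATP synthase genes and 4 of the 10 ndh genes, but none of the cytochrome b6f genes and not rbcL.

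The difference between the 2 far-red responses, gun1gun5 minus wild type, was called for 0 of 43 members in limma, against 2.82% of all tested probe sets in either direction. At an unadjusted p under 0.05 there were 6 members, 5 with a lower gun1gun5 response (atpE, petB, ndhI, psaB and psbA) and 1 with a higher one (petD), against 16.1% of all tested probe sets in either direction, a share that the 6 of 43 did not exceed. The lowest adjusted p was 0.154, for atpE at -0.38 ± 0.13 (95% interval -0.66 to -0.11). Thus the different lists of calls in the 2 genotypes do not show that the genes responded differently. The median over members was -0.10, but without WT_D replicate 1 it was -8e-05, without gun1gun5_D replicate 2 it was -0.023 and without gun1gun5_D replicate 1 it was -0.18.

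After far-red, 4 of 43 members (9.30%) were called higher in gun1gun5 than in wild type and 0 lower, against 9.80% higher among all tested probe sets. petD, which encodes subunit IV of cytochrome b6f, had the largest such difference that was called. It had 122.2 and 103.3 in gun1gun5_FR against 63.7 and 51.7 in WT_FR, 108.8 and 97.9 in gun1gun5_D against 80.2 and 81.2 in WT_D, and 106.7 in phyA_FR against 119.5 in phyA_D. All 4 wild-type arrays were below the 6 mutant arrays. The petD difference after far-red was 0.81 ± 0.13 (adjusted p = 0.00262), called in all 13 alternative settings.

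ndhG, for a membrane subunit of the NDH complex, had 240.9 and 164.9 in gun1gun5_FR against 127.5 and 93.0 in WT_FR, 256.9 and 222.8 in gun1gun5_D against 158.9 and 159.5 in WT_D, and 249.5 in phyA_FR against 269.5 in phyA_D. Here too the 4 wild-type arrays were the lowest. The ndhG difference after far-red was 0.79 ± 0.19 (adjusted p = 0.0151), a call lost without WT_FR replicate 2 and without gun1gun5_FR replicate 1. psbB differed by 0.49 ± 0.14 (adjusted p = 0.0307) and psaC by 0.46 ± 0.14 (adjusted p = 0.0389), and both calls were lost when any of the 4 arrays was left out. This comparison shares the WT_FR arrays with the wild-type far-red comparison, in which psbB and psaC were called lower. Of the 43 members 37 were above 0, with a median of 0.12. Over all tested probe sets the median was 0.029, and 46.2% were below 0. After quantile normalization 12 members were below 0 and their median was 0.063, against 0.051 over all tested probe sets. With 1 array left out the member median lay between 0.078 and 0.21.

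**Figure D3:**
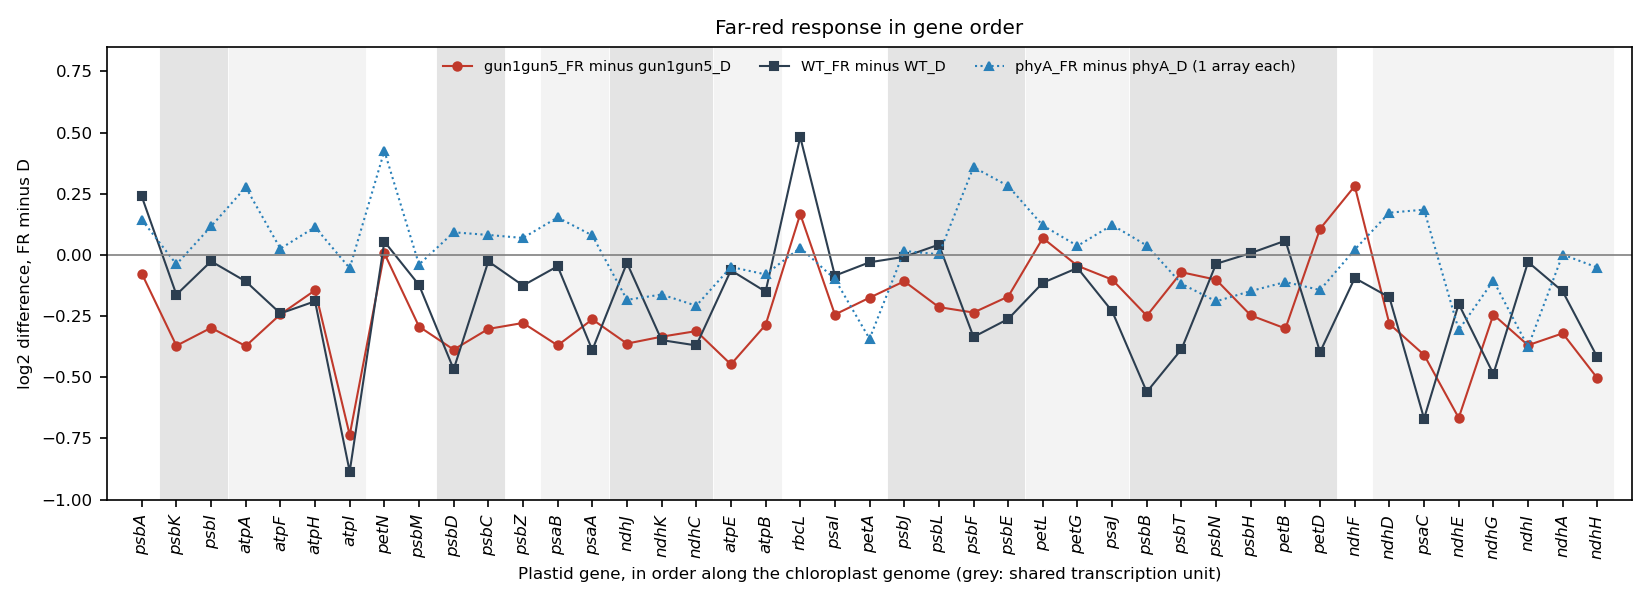
Log2 difference of FR minus D (vertical axis) for the 43 genes in their order along the chloroplast genome in RefSeq, for gun1gun5 (circles), wild type (squares) and phyA (triangles, 1 array each); grey bands are shared transcription units, with psbN lying on the opposite strand inside the psbB unit. Neighbours within a band can differ, as do psbB at -0.56 and petB at 0.06 in wild type.

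Without far-red, 5 of 43 members (11.6%) were called higher in gun1gun5 than in wild type and 0 lower, against 4.06% higher among all tested probe sets. They were psbA at 0.53 ± 0.09 (adjusted p = 0.00860), psaB at 0.40 ± 0.09, atpE at 0.39 ± 0.09, petB at 0.39 ± 0.10 and ndhD at 0.38 ± 0.10. petB, the cytochrome b6 gene, had 2561.6 and 2663.1 in gun1gun5_FR against 2530.9 and 2592.2 in WT_FR, 3167.0 and 3274.4 in gun1gun5_D against 2214.6 and 2730.0 in WT_D, and 2806.8 in phyA_FR against 3031.6 in phyA_D. ndhD, for a membrane subunit that takes part in proton pumping, had 1705.0 and 1919.6 in gun1gun5_FR against 1491.7 and 1500.8 in WT_FR, 2137.1 and 2271.0 in gun1gun5_D against 1599.1 and 1783.9 in WT_D, and 2371.6 in phyA_FR against 2102.1 in phyA_D.

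Above 0 were 41 members, with a median of 0.27 over the members and 0.00062 over all tested probe sets. Of the members, 16 were among the highest 1% of probe sets by mean level. The part of the brightest values in this difference was not tested. The 99th percentile of all values was 1794 and 1847 on the gun1gun5_D arrays against 1570 and 1647 on the WT_D arrays. After quantile normalization, which sets these percentiles equal, 0 members were called, against 513 higher and 636 lower of all 13647 tested probe sets. The member median was then 0.090 and 12 members were below 0. Leaving out 1 array left between 1 call, psbA, and 4 calls, the lowest without either gun1gun5_D array or without WT_D replicate 1, and ndhD was not called in any of these 4 fits. Such fits called fewer of all tested probe sets too. The petB difference was 0.24 without WT_D replicate 1. The medium also differed here, with sucrose listed for WT_D but not for gun1gun5_D. The gun1gun5_D arrays are shared with the gun1gun5 far-red comparison, in which psaB and atpE were called lower.

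Far-red differences within a shared transcription unit were far apart in some units and close in others. The psbK and psbI values differed by 0.073 in gun1gun5 and 0.14 in wild type, those of atpB and atpE by 0.16 and 0.087, and those of petL, petG and psaJ spanned 0.17 and 0.18, in the same order of genotypes. In the unit of psbB, psbT, psbH, petB and petD, which spans 2 complexes, wild-type far-red differences ran between -0.56 for psbB and 0.06 for petB, and gun1gun5 ones between -0.30 for petB and 0.11 for petD. The unit of atpI, atpH, atpF and atpA ran between -0.74 for atpI and -0.14 for atpH in gun1gun5, and between -0.89 for atpI and -0.11 for atpA in wild type. psaC shares a unit with 6 ndh genes, whose wild-type differences reached -0.03 at ndhI while psaC had -0.67. psbD and psbC, whose reading frames overlap, had -0.47 and -0.03 in wild type, but -0.39 and -0.30 in gun1gun5. The narrowest of the 3-gene units was ndhC, ndhK and ndhJ in gun1gun5, between -0.36 and -0.31. Differences between genes of 1 unit were not tested.

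In phyA there was 1 array for each pretreatment and therefore no test. The FR minus D difference lay between -0.38 for ndhI and 0.43 for petN. None of the 43 reached 1.5-fold, against 2.78% of all tested probe sets, and 24 were above 0 and 19 below, with a median of 0.02 over members and 0.01 over all tested probe sets. Array error cannot be separated from a response in a single pair.

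The mean member level, as log2(intensity + 16), was 10.01 on phyA_FR and 10.00 on phyA_D. These lay between the gun1gun5_D arrays, at 9.90 and 10.06. The gun1gun5_FR arrays had 9.76 and 9.72, and the wild-type arrays 9.50 to 9.79. Both phyA arrays were above all 8 other arrays for 12 of 43 members (27.9%), against 4.38% of all tested probe sets, and both were below the other 8 for 0 members, against 4.66%. The 12 were psaI, psaJ, psbC, psbD, psbL, psbN, psbZ, petL, petN, ndhC, ndhJ and ndhK. They include the whole ndhC, ndhK and ndhJ unit and both genes of the psbD and psbC unit, and none of the ATP synthase genes. petN, for a small cytochrome b6f subunit, had 389.8 in phyA_FR and 286.2 in phyA_D, with a range of 145.6 to 232.4 over the other 8 arrays. For ndhK, an iron-sulfur subunit of the NDH complex, the phyA_FR array gave 476.7 and the phyA_D array 535.1, with a range of 214.6 to 398.3 over the other 8 arrays.

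This count was 13 after quantile normalization, with 4.21% of all tested probe sets, and 12 to 16 when 1 of the other 8 arrays was left out; these settings were chosen after seeing the data. The phyA arrays also stood apart in their control probe sets. Their 3' to 5' ratio for GAPDH was 1.67 in phyA_FR and 1.34 in phyA_D, with 0.925 to 1.27 on the other arrays, and their 5S rRNA signal was 28.8 in phyA_FR and 31.9 in phyA_D, with 1.5 to 10.7 on the others. The part of RNA quality in the phyA levels was not tested.

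**Figure D4:**
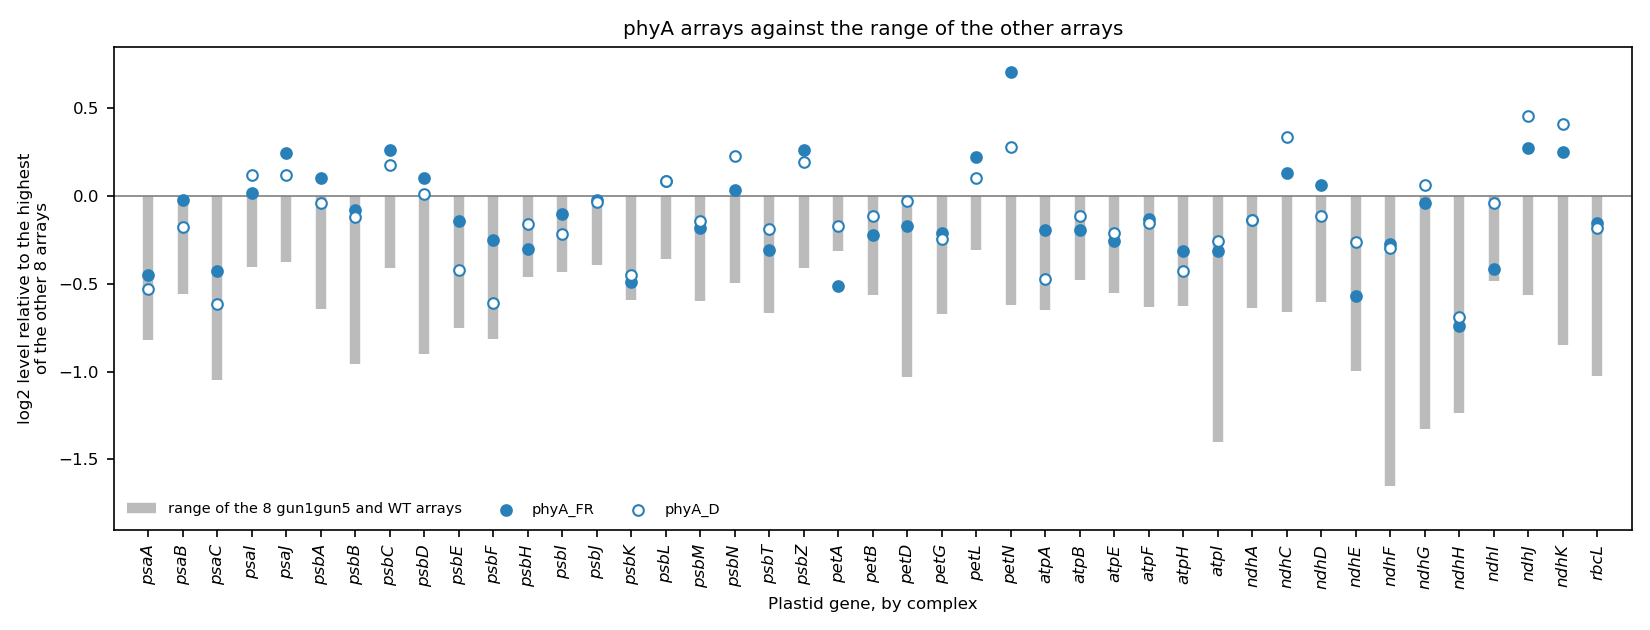
Level of each of the 43 genes on the phyA_FR (filled) and phyA_D (open) arrays, as log2(intensity + 16) relative to the highest of the 8 gun1gun5 and WT arrays, whose range is the grey bar. Both phyA points lie above 0 for 12 genes, among them petN, ndhJ and ndhK, and no gene has both points below its bar.

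The 25S ribosomal RNA control, a transcript without a poly(A) tail, was used as a check on how much untailed RNA each labelling took up. How well it measures this was not tested. It had 903.7 and 1790.6 in gun1gun5_FR against 376.7 and 3003.8 in gun1gun5_D, 494.1 and 2367.6 in WT_FR against 775.5 and 314.8 in WT_D, and 2090.2 in phyA_FR against 2444.9 in phyA_D. Within a group the 2 arrays thus differed by 1.98-fold in gun1gun5_FR, 7.97-fold in gun1gun5_D, 4.79-fold in WT_FR and 2.46-fold in WT_D. FR and D arrays overlapped in gun1gun5 and in wild type, whereas both WT_D arrays were below both gun1gun5_FR arrays and both phyA arrays. The members showed no shared direction with it. The median member difference, replicate 1 minus replicate 2, was 0.02 in gun1gun5_FR, -0.15 in gun1gun5_D, 0.08 in WT_FR and -0.11 in WT_D. In 3 of the 4 groups the array with more 25S signal had the lower mean member level, and in gun1gun5_D it had the higher one. The 5S rRNA control lay between 1.5 and 10.7 on the gun1gun5 and wild-type arrays. It was lower on the array with more 25S signal in gun1gun5_FR, gun1gun5_D and WT_FR, and higher there in WT_D. The 25S and 5S controls thus did not rank the replicates alike.

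With the 25S level as a covariate, 7 members were called lower in gun1gun5, against 8.60% of all tested probe sets in that fit, and 3 in wild type (atpI, psbB and psaC), against 11.6%. The difference of responses had 0 calls. Higher in gun1gun5 than in wild type were 5 members after far-red, against 10.8% of all tested probe sets, and 4 without it, against 5.14%. The median far-red difference was then -0.27 in gun1gun5 and -0.14 in wild type. On the norflurazon array, WT_D replicate 2, 35 of 43 members (81.4%) read higher than on WT_D replicate 1. A similar lean occurred without norflurazon, since in gun1gun5_D only 7 of 43 read higher on replicate 1. The member medians of replicate 1 minus replicate 2 were -0.11 in WT_D and -0.15 in gun1gun5_D. Over all tested probe sets they were 0.0088 in WT_D and 0.011 in gun1gun5_D. The part of norflurazon was not tested.

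**Figure D5:**
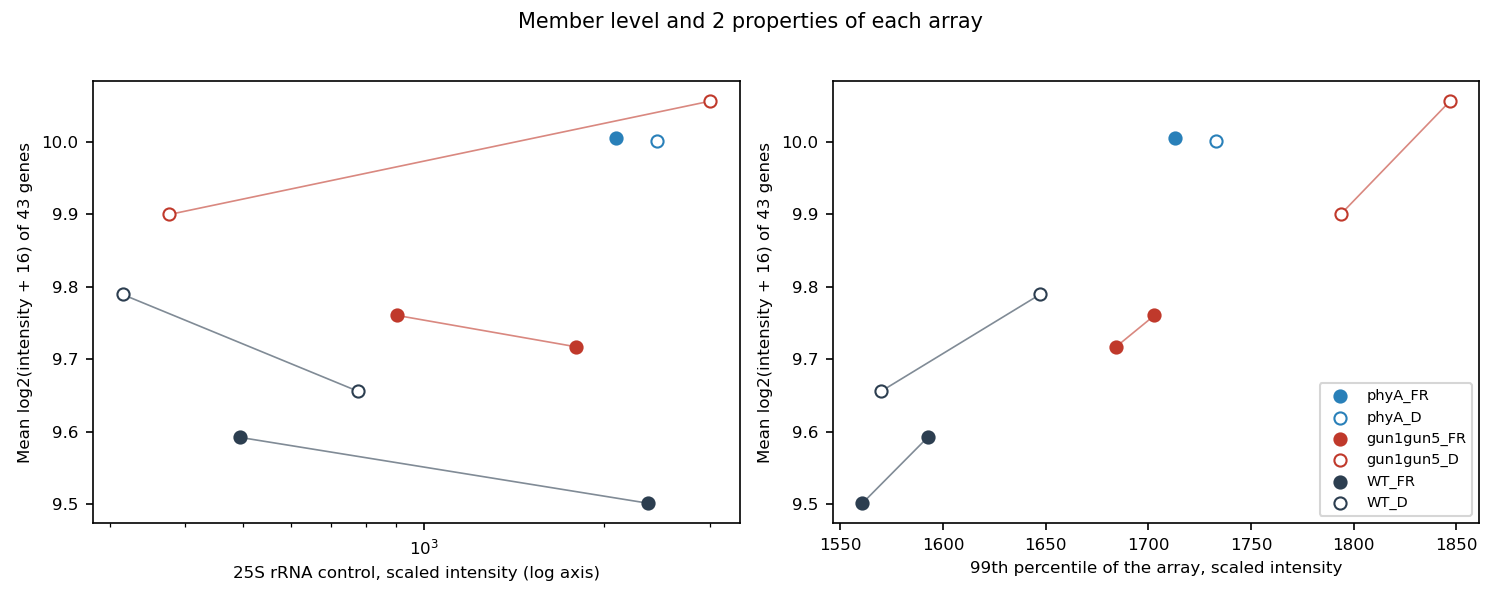
Mean log2(intensity + 16) of the 43 genes (vertical axes) on each array against the 25S rRNA control (left, log axis) and against the 99th percentile of all values on the array (right), with lines joining replicates. The 25S signal runs between 314.8 and 3003.8 with no shared direction among replicate pairs, while the array of each pair with the higher 99th percentile has the higher member level.

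Other gene lists were set beside the members by counts and medians only. Among all tested probe sets, 8.06% were called lower with far-red in gun1gun5 and 12.6% in wild type. Called higher were 6.38% in gun1gun5 and 9.72% in wild type. Of 19 plastid genes for polymerase and ribosome proteins (rpo, rps, rpl), 4 were called lower with far-red in gun1gun5 and 3 in wild type, with medians of -0.46 in gun1gun5 and -0.22 in wild type. The 7 remaining plastid genes had 0 calls in both, with medians of -0.27 in gun1gun5 and -0.03 in wild type. Of 12 nuclear genes for the same complexes and their antennae, 8 were called lower in gun1gun5 and 5 in wild type, with medians of -0.34 in gun1gun5 and -0.32 in wild type. The antenna gene LHCB4.2 had 1165.9 and 1193.6 in gun1gun5_FR against 2652.9 and 2876.0 in gun1gun5_D, and 1004.2 and 785.4 in WT_FR against 2058.4 and 2235.9 in WT_D. Its FR arrays were below its D arrays in both genotypes. Of 16 tested mitochondrial probe sets, 0 were called in gun1gun5 and 3 were called higher in wild type (cox1, cox2 and nad6), with medians of 0.02 in gun1gun5 and 0.23 in wild type.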

How the data were processed

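Total RNA of seedling pools was labelled with a T7 oligo-dT primer of 24 T and hybridised to ATH1 arrays, per the labels' protocols. The deposited values were linear intensities per probe set, which the authors had scaled to a trimmed mean of 100.008 to 100.01 per array (2% left out at each end, found from the values). The summarisation software is not given in the sources used here. Array medians lay between 35.6 and 40.4, and the number of arrays limits the precision.

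Gene names came from GEO's platform annotation, and chromosome and symbol from RefSeq (TAIR10.1) by gene ID; 13513 listed 1 gene, of which 13436 were found, 503 listed several and 8730 were not listed. Mitochondrial probe sets were named by the platform's symbols, since their gene IDs were not matched. Log2(intensity + 16) was modelled by limma 3.58.1 (R 4.3.3) as 6 group means and a variance trend (4 residual and 6.30 prior degrees of freedom), for 13647 probe sets with a mean above the 40th percentile (log2 level 5.35). Benjamini-Hochberg adjustment was made within each of 5 contrasts. The script was tested on simulated data. The labels do not say that replicates were separate cultures, so p-values reflect only how these samples spread, which may be technical.

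Members and lists were chosen with earlier results of these data known. Values on every array are given for each member called in any contrast and for rbcL. petN and ndhK in the phyA comparison were chosen after their values were seen. The mutated genes were not checked here. Alternatives were pseudocounts of 1 and 64, quantile normalization, no filter or one at the 60th percentile, no variance trend, the compared groups alone, a replicate block, the 25S level as a covariate, and leaving out each array.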

Additional observations from a re-analysis of the deposited data

How the results depend on the processing

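The member medians stayed on the same side of 0 in both far-red and both genotype comparisons under all alternatives, but several moved by over 1.5 times. After quantile normalization they were -0.14 for gun1gun5_FR minus gun1gun5_D, 0.063 for gun1gun5_FR minus WT_FR and 0.090 for gun1gun5_D minus WT_D, and without WT_D replicate 1 the median of WT_FR minus WT_D was -0.24. Among the single genes followed, the direction reversed once, for atpB in gun1gun5, at 0.032 after quantile normalization. Over all members, that normalization put 12 below 0 in each genotype comparison, where 6 (after far-red) and 2 (without it) had been. The number of members called moved more. For gun1gun5_FR minus gun1gun5_D, 8 in the reported fit, it was 1 with quantile normalization, 0 without a filter, 3 without a variance trend and 0 to 8 when 1 array was left out. For WT_FR minus WT_D, 4 in the reported fit, it was 8 with quantile normalization and 1 to 6 with 1 array left out. For gun1gun5_FR minus WT_FR, 4 in the reported fit, it was 2 without a filter and 1 to 3 with 1 array left out. For gun1gun5_D minus WT_D, 5 in the reported fit, it was 0 with quantile normalization, 0 without a filter, 1 without a variance trend, 2 with the compared groups alone and 1 to 4 with 1 array left out. Without a filter more probe sets enter the adjustment, and with 1 array left out there are fewer samples. In both cases fewer of all tested probe sets were called too. The cause of the other changes was not tested. The difference between the responses gave 0 calls in every alternative run. Same-numbered replicates had correlations of deviations between 0.064 and 0.187 over 13647 probe sets, and with 2 numbers a group and no label that ties same-numbered samples, the pairing was not settled. All 6 correlations were above 0. With a replicate block the counts were 9 for gun1gun5_FR minus gun1gun5_D, 7 for WT_FR minus WT_D, 0 for the difference of responses, 5 for gun1gun5_FR minus WT_FR and 7 for gun1gun5_D minus WT_D. Over all 13647 tested probe sets, calls in either direction were then 2362, 3417, 501, 3188 and 1637, in the same order. Over these single genes, 201 alternative values kept direction and call, 105 kept direction only, 5 gained a call and 1 reversed. With 2 arrays a group, the SE of a member's log2 difference lay between 0.082 and 0.34, which limits the size that can be called.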
